A study of Mus musculus with 7 samples.

Results

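The genes described here encode cytokine subunits, receptor chains and a kinase of the interleukin (IL)-12 and IL-23 family, measured by RNA sequencing of the mouse optic nerve. They are 10 of the 22880 genes in the deposited table, found by their names. Il23a and Il12rb1 were selected on their difference between mutant and control nerves in these same samples, so for this pair the difference is given as a description without a p-value, and its calls enter only the counts of members past the threshold. The other 8 members were taken because they belong to the same family.

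Optic nerves were collected at P14, the 14th day after birth, from 4 control mice of genotype FASN lox/lox and from 3 mutant mice of genotype olig2cre FASN lox/lox, on a C57Bl/6 background to which the floxed line had been crossed for at least 3 generations. These genotypes put the floxed Fasn allele on both chromosomes of every mouse, although the paper also lists Fasn lox/wt mice among its developmental controls. The mutants also carried a Cre recombinase driven by the Olig2 promoter, meant to inactivate Fasn in the oligodendrocyte (OL) lineage. Whether other cells of the nerve kept Fasn was not measured here. Both nerves of 1 mouse made 1 sample, and each sample is a mean over all cells of the tract. Fasn itself had 169.1 to 228.3 FPKM in control and 49.0 to 69.3 FPKM in mutant samples, where FPKM are reads per kilobase of a gene's transcript after scaling for library depth. The samples held 27452222 to 43462575 reads, fewer in 2 of the 3 mutants than in any control. Markers of OLs (34415 to 36558 summed FPKM in control samples) and of astrocytes (2566 to 3012) were abundant, and those of neurons were low (36.5 to 46.7), as in a tract of axons and glia.

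Cytokines of this family are built from 2 different chains. IL-23 joins the chain encoded by Il23a to the one encoded by Il12b, and IL-12 joins the product of Il12a to that same Il12b chain. Ebi3 encodes a chain that pairs with the product of Il27 in IL-27. The receptors are paired as well: Il12rb1 is shared by the IL-12 receptor, with Il12rb2, and by the IL-23 receptor, with Il23r, whereas the IL-27 receptor joins Il27ra to gp130, the product of Il6st. JAK2 and TYK2 are the kinases bound to the IL-12 and IL-23 receptors, which signal through STAT proteins. Dendritic cells and macrophages are well known sources of IL-12 and IL-23, and T and NK cells are well known targets of this pair of cytokines.

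In mutant optic nerves the RNA of Il23a and of Il12rb1 was lower and that of Il6st was higher, with no overlap between genotypes, while Il12b, Il12rb2 and Il23r, whose products partner those of Il23a and Il12rb1, were close to absent in both. Of the 10 members, 5 were abundant enough to be tested (at least 0.5 FPKM in at least 3 samples), namely Il23a, Ebi3, Il12rb1, Il6st and Jak2. Il12a, Il12b, Il12rb2, Il23r and Il27ra were not, and none of them exceeded 0.379 FPKM in any sample. The plot of member levels by genotype shows all 10.

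**Figure D1:**
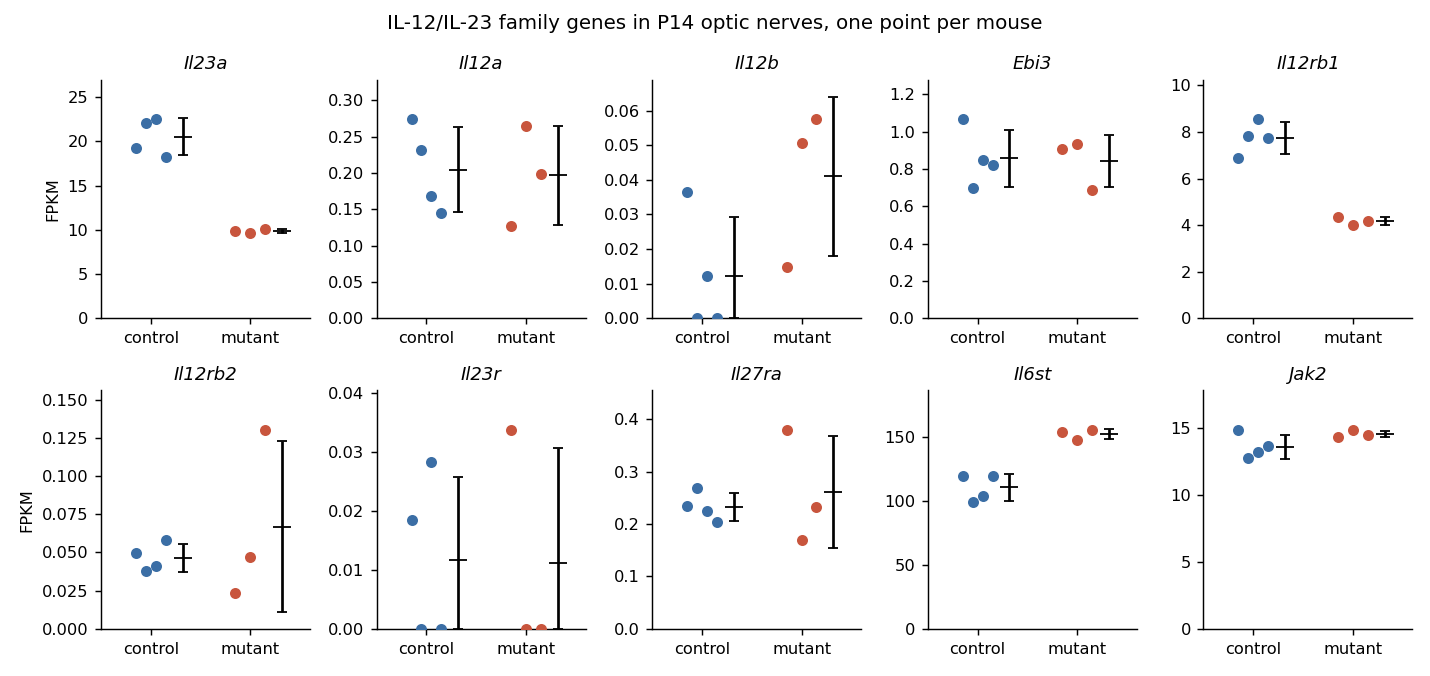
FPKM (y axis, linear from 0, a separate scale for each gene) of the 10 family genes in control and mutant optic nerves, with 1 point per mouse and the mean ± SD beside the points (SD bars are cut at 0). Il23a and Il12rb1 lie lower in every mutant (at most 10.1 and 4.35 FPKM) than in any control (at least 18.2 and 6.88 FPKM), Il6st lies higher, and Il12b and Il23r stay below 0.06 FPKM.

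Il23a (ENSMUSG00000025383, chromosome 10 of GRCm38 from 128296140 to 128298084, minus strand) encodes the subunit particular to IL-23. Its level was 19.3, 22.1, 22.5 and 18.2 FPKM in controls 1 to 4 and 9.86, 9.59 and 10.1 FPKM in mutants 1 to 3. The mutant samples lay close together and well below the lowest control. The means were 20.5 ± 2.10 FPKM (SD, n = 4) and 9.85 ± 0.257 FPKM (SD, n = 3), so that mutant nerves held 48.0% of the control level. Behind these values stood 775 to 1327 reads per control and 377 to 479 reads per mutant sample. On the scale of log2(FPKM + 0.5), which understates changes of weakly expressed genes, the difference was -1.02 (standard error (SE) 0.0877). This was the 14th lowest of 13866 fold changes, between Gsto1 (-1.03) and Sp7 (-1.01), and it ranged from -1.07 to -0.97 with each sample left out in turn.

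Il12b, whose product completes IL-23, was barely detected. Its reads numbered 3, 0, 1 and 0 in controls 1 to 4 and 1, 3 and 3 in mutants 1 to 3. That makes 11 reads of Il12b beside 5679 of Il23a over all 7 samples. In the 2 control samples without a read, a count of 0 allows up to 3 reads, or 0.0402 and 0.0504 FPKM. The other untested cytokine gene was Il12a, the subunit particular to IL-12, with 0.145 to 0.274 FPKM (5 to 13 reads) in control and 0.127 to 0.264 FPKM (5 to 9 reads) in mutant samples. Both genotypes overlapped for Il12a and Il12b, and at so few reads a difference of either gene was not detectable. Such counts carry counting error at the least, and their true error can be larger, since amplified reads are not independent molecules.

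Ebi3 was the only other cytokine subunit that could be tested. It had 1.07, 0.697, 0.846 and 0.819 FPKM in controls 1 to 4 and 0.909, 0.935 and 0.685 FPKM in mutants 1 to 3, which overlapped. The difference of -0.01 on the log2 scale (SE 0.143, limma-trend adjusted p = 0.968) has a 95% interval from -0.34 to 0.31, so a change of that size in either direction was within the error. In the GENCODE annotation of the same build an antisense gene, Gm16712, overlaps Ebi3, and whether the counting used strand is not given in the sources used here.

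Among the receptor chains, Il12rb1 (ENSMUSG00000000791, chromosome 8 from 70808449 to 70821424, plus strand) was the only one of the IL-12 and IL-23 receptors with more than traces of RNA. It had 6.88, 7.84, 8.54 and 7.76 FPKM in controls 1 to 4 and 4.35, 3.99 and 4.18 FPKM in mutants 1 to 3. As for Il23a, the highest mutant lay below the lowest control. The means of 7.75 ± 0.681 FPKM (SD, n = 4) and 4.17 ± 0.183 FPKM (SD, n = 3) put the mutants at 53.8% of the control level, from 698 to 1066 reads per control and 330 to 447 per mutant sample. The difference was -0.82 on the log2 scale (SE 0.0931), the 23rd lowest of all genes tested, next to Epcam (-0.84) and Hist1h2bn (-0.79). It ranged from -0.87 to -0.77 with each sample left out.

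The chains that join Il12rb1 in its 2 receptors were near the limit of detection. Il23r gave 2, 0, 3.1 and 0 reads in controls 1 to 4 and 3, 0 and 0 reads in mutants 1 to 3, where fractions arise when a read fits several genes. Where it had no read, its level could be up to 0.0307 to 0.0439 FPKM. Il12rb2 gave 4.1 to 6 reads per control and 2.4 to 10 reads per mutant sample, or 0.0376 to 0.0580 and 0.0236 to 0.130 FPKM. The 3' part of Il12rb2 lies across Serbp1, a gene on the opposite strand with 15.7 FPKM in mutant nerves, so its few reads cannot be assigned with certainty. Neither chain allowed a comparison between genotypes at this depth.

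Il27ra, the specific chain of the IL-27 receptor, was weakly expressed, with 0.204 to 0.268 FPKM (17 to 28 reads) in control and 0.170 to 0.379 FPKM (14 to 36 reads) in mutant samples, and the genotypes overlapped. Its partner Il6st was the most abundant member. Il6st (ENSMUSG00000021756, chromosome 13 from 112464070 to 112510086, plus strand) encodes gp130, which besides IL-27 serves IL-6, LIF, CNTF and related cytokines. It had 119.8, 99.4, 104.0 and 119.7 FPKM in controls 1 to 4 and 153.8, 147.6 and 155.4 FPKM in mutants 1 to 3. All mutants were above all controls, and they were closer to each other than the controls were.

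Il6st rose from a mean of 111 ± 10.6 FPKM (SD, n = 4) in controls to one of 152 ± 4.12 FPKM (SD, n = 3) in mutants, which is 0.46 on the log2 scale (SE 0.0794, 95% interval 0.28 to 0.64, limma-trend adjusted p = 0.0293). It ranked 978th from the top among the fold changes of all genes. The call was lost without control 1 (limma-trend adjusted p = 0.0550), control 2 (0.0664), control 3 (0.112), mutant 1 (0.0565) or mutant 3 (0.0976), and also without the filter on low values (0.0653), whereas the fold change stayed between 0.39 and 0.50 in all fits.

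Jak2, the kinase of the group, was not called. Its level was 14.8, 12.7, 13.2 and 13.6 FPKM in controls 1 to 4 and 14.3, 14.8 and 14.5 FPKM in mutants 1 to 3, with overlapping genotypes. The log2 fold change of 0.10 (SE 0.0720, limma-trend adjusted p = 0.441) had a 95% interval from -0.07 to 0.26.

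Altogether 3 of the 5 tested members had an adjusted p under 0.05, 2 of them lower (the selected pair) and 1 higher in mutants. The background over all 13866 genes was 2.62% in either direction, 1.36% lower and 1.26% higher. Control and mutant samples did not overlap in 3 of the 5 members, beside 21.1% of all genes tested. Since 2 of these 3 members were selected on this contrast, nothing is read from the counts. The number of members called was 2 with control 1 or mutant 1 left out and 1 with control 2, control 3 or mutant 3 left out, and the calls over all genes fell to between 6 and 186 in these fits. Over all genes 188 were lower and 175 higher, but 224 and 138 with TMM factors, 281 and 141 with quantile normalization, and 266 and 102 from the normalized counts. Higher genes prevailed with DESeq2 (775 lower and 933 higher). With samples of the same number paired in the fit, to which control 4 adds nothing for lack of a partner, 1159 genes passed in place of 363 (269 lower and 890 higher), and the members called were again 3.

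Ordered by length-scaled level, control nerves held Il6st above Il23a, Jak2, Il12rb1 and Ebi3, each step wider than the spread over samples. Il23a exceeded Jak2 in all 4 control samples, and in the 3 mutant samples it was below Jak2 each time. Below Ebi3 followed Il27ra (mean 0.233 FPKM) and Il12a (0.205 FPKM), whose control samples overlapped, then Il12rb2 (0.0465 FPKM), and finally Il12b (0.0121 FPKM) and Il23r (0.0117 FPKM), which could not be ordered. The ratio of Il23a to Il12rb1, both in FPKM, was 2.35 to 2.82 in control and 2.27 to 2.41 in mutant samples, which overlapped.

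Promoter sequences were compared between abundant and nearly silent members. RefSeq windows from 250 bases before to 50 bases after the start site (GRCm38.p6) were given for 7 of the 10 members in 8 windows, with 2 for Il12a, and were not given for Il23a, Il12rb1 and Il27ra. The windows of Il6st, the member with the most RNA and the only tested rise, and of Il12b and Il23r, the members with the least, are printed 5′ to 3′ on the strand of the gene, with CG dinucleotides in capitals.
Il6st, chr13:112463820-112464119, plus strand: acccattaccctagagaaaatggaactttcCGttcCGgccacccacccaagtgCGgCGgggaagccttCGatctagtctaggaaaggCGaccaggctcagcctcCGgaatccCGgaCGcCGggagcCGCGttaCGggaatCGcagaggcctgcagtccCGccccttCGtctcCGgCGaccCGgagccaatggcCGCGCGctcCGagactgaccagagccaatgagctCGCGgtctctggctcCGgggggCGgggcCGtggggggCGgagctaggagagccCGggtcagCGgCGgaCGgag
Il12b, chr11:44399813-44400112, plus strand: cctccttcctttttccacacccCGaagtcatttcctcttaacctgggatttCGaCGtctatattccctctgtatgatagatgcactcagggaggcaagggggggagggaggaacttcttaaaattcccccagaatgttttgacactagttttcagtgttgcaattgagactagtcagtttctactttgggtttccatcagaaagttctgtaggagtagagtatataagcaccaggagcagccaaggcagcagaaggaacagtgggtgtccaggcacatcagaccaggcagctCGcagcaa
Il23r, chr6:67491806-67492105, minus strand: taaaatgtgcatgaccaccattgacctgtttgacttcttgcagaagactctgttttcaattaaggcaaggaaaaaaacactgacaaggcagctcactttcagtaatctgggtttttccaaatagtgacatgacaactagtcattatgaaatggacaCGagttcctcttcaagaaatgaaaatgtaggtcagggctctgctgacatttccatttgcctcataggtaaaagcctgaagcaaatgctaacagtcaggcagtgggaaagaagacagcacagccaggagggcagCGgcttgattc

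The Il6st window held 33 CG dinucleotides and 68.3% G and C, whereas the windows of Il12b and Il23r held 4 and 2. Over the 32851 windows of the table the median was 7, and 91.4% of windows had fewer than Il6st. Jak2, also well expressed, had 44 and exceeded 97.8% of windows. Ebi3 had 2 and Il12rb2 had 12, and the windows of Il12a had 3 and 16, so that Ebi3 was expressed above 0.5 FPKM with as few CG dinucleotides as Il23r. The letters TTCNNNGAA, a STAT site, were found on either strand in the Il12rb2 window alone, against 8.30% of all windows. CAGCTG, an E-box, was found for Jak2 alone (16.3% of all windows), the kappa B motif for Ebi3 and Il12rb2 (8.46% of all windows), and TATAAA for none (13.6% of all windows). These are matches of letters and say nothing about binding.

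The nearest listed genes on either side of the selected pair are given as a description, since the pair was selected for its difference and its neighbours were not. Stat2, a signal transducer of interferon receptors, ends 3291 bases before Il23a in the table and lies on the other strand. Its log2 fold change was -0.38 (SE 0.142, limma-trend adjusted p = 0.149). Pan2, which encodes a deadenylase subunit, starts 5251 bases after Il23a, with -0.19 (SE 0.0746, limma-trend adjusted p = 0.161). On both sides of Il12rb1, Mast3 had a fold change of -0.11 (SE 0.113) and Arrdc2 one of -0.30 (SE 0.201), with a limma-trend adjusted p of 0.597 and 0.386. None of the 4 passed in limma-trend, edgeR or the fit paired by replicate number, whereas DESeq2 called Stat2 (-0.43, adjusted p = 0.0322) and Pan2 (-0.25, adjusted p = 0.0212), both lower in mutants. Beyond Il6st lies Il31ra, a related receptor chain, with 0.765 ± 0.147 FPKM (SD, n = 4) in control and 1.05 ± 0.574 FPKM (SD, n = 3) in mutant nerves.

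The remaining pathway was followed with lists of genes chosen by role. Of 9 further cytokines that act through gp130, 4 were tested and none passed the threshold in limma-trend (1 had an unadjusted p under 0.05), edgeR or DESeq2. Over all genes tested 3387, or 24.4%, had an unadjusted p under 0.05 in limma-trend, and the counts given for this and the following lists are to be read beside that share. Cntf, a glial survival factor, was the most abundant at 6.74 ± 1.28 FPKM (SD, n = 4) in control and 8.41 ± 0.620 FPKM (SD, n = 3) in mutants (0.31 on the log2 scale, limma-trend adjusted p = 0.199). Il27, the partner of Ebi3, had at most 0.0626 FPKM in any sample, and Il6 at most 0.0600 FPKM.

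The 5 receptor chains that join gp130 all had positive fold changes with a median of 0.31. None passed the threshold in limma-trend (3 had an unadjusted p under 0.05) or edgeR, whereas DESeq2 called Il11ra1 and Il6ra and the fit paired by replicate number called Il11ra1. Il11ra1, the specific chain of the IL-11 receptor, was nearest to it with 0.51 (SE 0.118, limma-trend adjusted p = 0.0597). It had 23.5 ± 0.465 FPKM (SD, n = 4) in control and 34.1 ± 7.32 FPKM (SD, n = 3) in mutant nerves. Osmr, the oncostatin M receptor, and Il6ra, the IL-6 receptor, also had genotypes that did not overlap, with 0.35 and 0.31 (limma-trend adjusted p = 0.106 and 0.135). The median of all genes tested was 0.05.

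Of the other Janus kinases and STATs, 9 of 10 were tested and none passed in limma-trend (5 had an unadjusted p under 0.05) or edgeR, with 6 positive and 3 negative fold changes and a median of 0.19. Tyk2, the kinase bound to Il12rb1, had 5.17 ± 0.485 FPKM (SD, n = 4) in control and 4.57 ± 0.691 FPKM (SD, n = 3) in mutant nerves. Stat3, the main transducer of IL-23 and of gp130, had 79.6 ± 5.56 and 90.6 ± 1.30 FPKM (SD, n = 4 and 3) with a log2 fold change of 0.19 (limma-trend adjusted p = 0.138). Stat4, the transducer of IL-12, was too low for the test, at 0.190 FPKM in control and 0.195 FPKM in mutant nerves. The range in this list ran from -0.38 for Stat2 to 0.48 for Stat5a, both of which DESeq2 called. The paired fit called Stat6 alone, as higher.

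The inhibitors of this signaling, 15 of 16 tested, likewise gave no call in limma-trend (4 had an unadjusted p under 0.05), edgeR, DESeq2 or the paired fit (median 0.12). Their fold changes ran from -0.28 for Pias4 to 0.46 for Cish, a feedback inhibitor, and Socs3, which restrains gp130, had 0.19 (limma-trend adjusted p = 0.536). Of the genes that T and NK cells express under IL-12 or IL-23, 9, among them Ifng, Il17a, Il22 and Tbx21, were too low to test and did not exceed 0.404 FPKM in any sample. The plot of fold changes by role shows the tested genes of 4 of these lists beside the members, of which Il23a and Il12rb1 were selected for their difference.

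**Figure D2:**
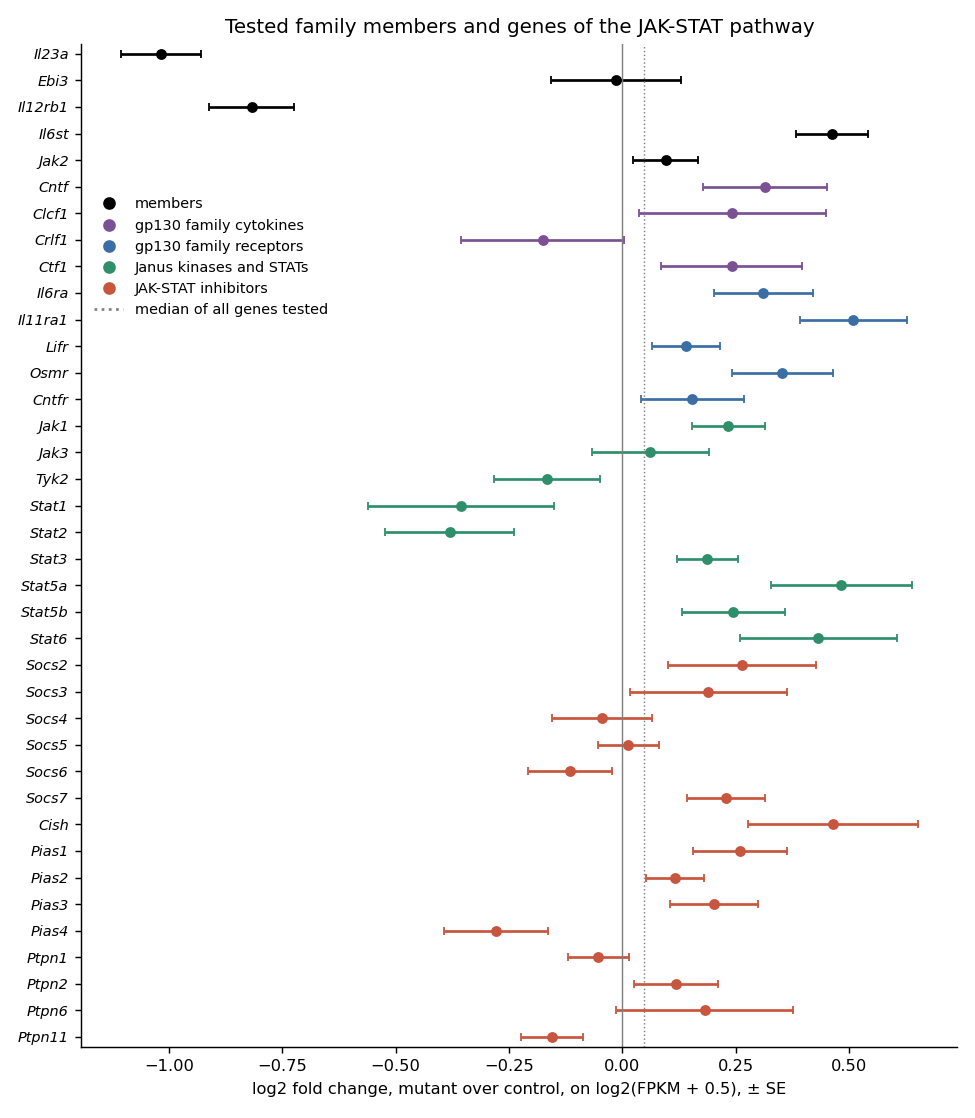
Log2 fold change of mutant over control on log2(FPKM + 0.5) (x axis) with its standard error, for the 5 tested members (black) and the tested genes of 4 pathway lists (colors), with the median of all genes tested (0.05) as a dotted line. Il23a (-1.02) and Il12rb1 (-0.82), selected for this difference, are the points at the left, and the listed genes lie between -0.38 and 0.51.

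Other genes with the pattern most like that of Il23a over the 7 samples were Birc2 (Pearson r = 0.998 on log2(FPKM + 0.5)), Gpr176 (0.997), Tmem101 (0.997), Tada1 (0.996) and Psmb1 (0.992). Il12rb1 came 7th (0.984). After removal of the genotype means, where 7 deviations remain, the values were 0.950 for Birc2, 0.943 for Gpr176 and 0.602 for Il12rb1. Among the genes nearest to Il12rb1 were Actb (0.989), Gpr176 (0.988), Slc27a4 (0.988) and Tmem101 (0.987), and Il23a came 9th. Gpr176 and Tmem101 appear beside both genes. These are the highest of 13866 correlations in a single set of libraries with a difference between genotypes, and are given as a description.

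Markers of several cell types differed between genotypes and are set beside the members here. The summed FPKM of 6 markers of OL progenitors was 337 to 387 in control and 245 to 286 in mutant samples, and that of 8 markers of committed and newly formed OLs was 856 to 963 and 626 to 769. For 10 markers of myelinating and mature OLs it was 34415 to 36558 and 25289 to 32605. Each of these sums was lower in all mutants, and in log2 relative to the control mean the mutants had -0.55 to -0.33 (progenitors), -0.54 to -0.24 (newly formed) and -0.48 to -0.11 (mature).

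On the same scale Il23a had -1.10 to -1.02 and Il12rb1 -0.96 to -0.83 in mutant samples, below the lowest mutant value of any OL list. Single OL markers that fell past the threshold were Cspg4 and Gpr17 of 6 progenitor markers, Neu4, Tmem2 and Rras2 of 8 newly formed OL markers, and Mag and Cnp of 10 mature OL markers, where Klk6 rose. EdgeR added C1ql1 and did not call Cnp, and DESeq2 kept these calls and added others, among them C1ql1, Bcas1, Enpp6, Itpr2 and Mobp, all lower. In the paired fit Mag and Cnp were not called, and C1ql1, Bcas1 and Enpp6 of these lists were called as lower. In whole nerves fewer cells of a type and less RNA per cell cannot be told apart, and the part of OL number in the levels of Il23a and Il12rb1 was not tested.

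Markers of microglia, the resident macrophages, had sums of 226 to 262 FPKM in control and 250 to 305 FPKM in mutant samples, which overlapped, with 0 of 10 past the threshold and 9 of 10 fold changes positive (limma-trend, 3 at an unadjusted p under 0.05). EdgeR and DESeq2 called none of these markers and the paired fit called Csf1r, as higher. Of 11 markers of dendritic cells and other macrophages, 9 were tested, none passed in limma-trend (1 at an unadjusted p under 0.05), edgeR or DESeq2, Mrc1 was called as higher in the paired fit, and the sums overlapped (19.98 to 36.0 and 28.7 to 46.2 FPKM). In control nerves Il23a, at 20.5 ± 2.10 FPKM (SD, n = 4), lay beside the microglial marker Cx3cr1 at 20.4 ± 2.25 FPKM and above Itgam (9.49 FPKM), Aif1 (6.70 FPKM) and the dendritic cell marker Itgax (0.620 FPKM). None of the 10 markers of T and NK cells reached the level for testing, and the highest value of any of them in any sample was 0.604 FPKM, below every value of Il12rb1.

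Beside the rise of Il6st stand the markers of cell types other than OLs, of which astrocyte markers alone had calls in limma-trend. The summed FPKM of 7 astrocyte markers was 2566 to 3012 in control and 3308 to 4085 in mutant samples, and Slc1a2, Aldh1l1 and Gja1 of this list rose past the threshold. EdgeR called Aldh1l1 and Gja1 alone, DESeq2 called these 3 with Gfap and Slc1a3, and the paired fit called them with Slc1a3 and Sox9. That of 5 endothelial markers was 68.3 to 79.9 and 86.7 to 91.6 FPKM, with 0 past the threshold in limma-trend (3 at an unadjusted p under 0.05) or edgeR, Flt1 and Kdr in DESeq2 and Flt1 in the paired fit. For 4 markers of meningeal fibroblasts it was 413 to 773 and 681 to 1353 FPKM, where mutant 1 was the highest and the genotypes overlapped, and for 4 neuronal markers 36.5 to 46.7 and 46.6 to 61.0 FPKM. None of these 8 markers passed in limma-trend (3 at an unadjusted p under 0.05) or edgeR, while DESeq2 called Dcn and the paired fit Dcn, Col1a1, Col1a2 and Tubb3. In log2 relative to the control mean, Il6st had 0.41 to 0.49 and the astrocyte sum 0.25 to 0.56 in mutant samples. The values of Il6st also fell within the mutant ranges of neuronal (0.19 to 0.58) and meningeal fibroblast sums (0.22 to 1.21). The same held for dendritic cells and other macrophages (0.01 to 0.70). Endothelial (0.24 to 0.32) and microglial sums (0.07 to 0.35) lay below Il6st. The part of any of these cell types in the rise of Il6st was not tested.

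**Figure D3:**
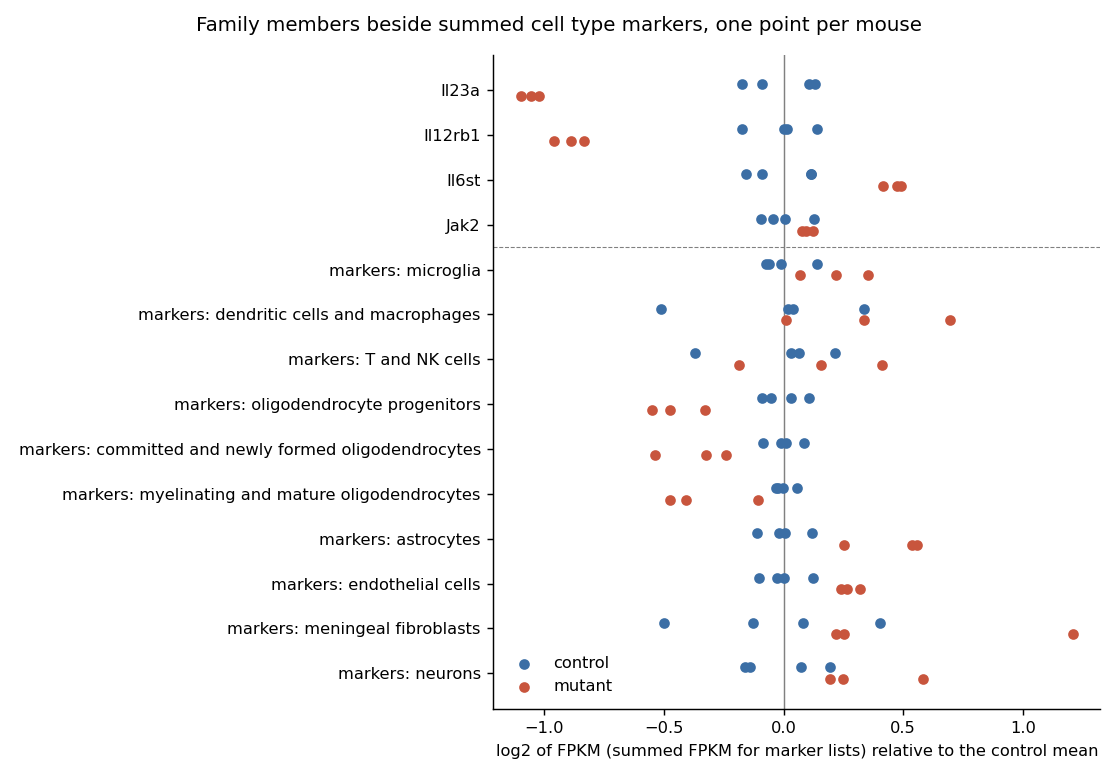
Log2 level relative to the control mean (x axis) of Il23a, Il12rb1, Il6st and Jak2 (FPKM) and of 10 lists of cell type markers (summed FPKM), with 1 point per mouse. Il23a (-1.10 to -1.02) and Il12rb1 (-0.96 to -0.83) in mutants lie lower than the sums of OL markers (-0.55 to -0.11). Il6st in mutants (0.41 to 0.49) lies within the range of astrocyte markers (0.25 to 0.56). It also lies within those of neurons (0.19 to 0.58), meningeal fibroblasts (0.22 to 1.21), and dendritic cells and macrophages (0.01 to 0.70). The sums of endothelial (0.24 to 0.32) and microglial markers (0.07 to 0.35) lie below Il6st.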

How the data were processed

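RNA of 7 optic nerve samples at P14 was sequenced with a stranded mRNA kit in single end mode. The authors filtered the reads, aligned them to GRCm38 with STAR (2.5.1b) and quantified genes with RSEM (1.2.22). They deposited 1 table with a normalized count, a signal that behaves as the RSEM count divided by a size factor per sample, whose method is not given in the sources used here, and an FPKM value per gene and sample. The log2 fold changes, p-values and FDR of the authors' own comparison and the GC fraction of each gene were deposited beside them and not used.

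A test on FPKM was used because the table holds no raw counts. It was limma-trend (limma 3.58.1, R 4.3.3) on log2(FPKM + 0.5) with genotype as the only term, for the 13866 genes with at least 0.5 FPKM in at least 3 samples, with Benjamini-Hochberg adjustment over all of them and a threshold of 0.05. On simulated counts for these genes, limma-trend recovered 65 of 109 changes of 0.5 and 90 of 91 changes of 1 on the log2 scale, with 9 false calls among 164. In that simulation every gene had the same fixed spread beyond counting error, with no replicate structure, and weakly expressed genes were left unchanged. Its figures check the code and are no measure of performance on the real samples. Reads were recovered by dividing normalized counts by their most frequent low value, which left 73.3% to 79.3% of values between 0.5 and 10 reads within 0.02 of a whole number. They gave depth and the count tests, in which edgeR (4.0.16, quasi-likelihood) called 401 genes and DESeq2 (1.42.0) called 1708. Nothing in the labels says what a replicate number stands for. Deviations from the group means had correlations of 0.168, 0.409 and 0.270 over the 3 pairs of the same number, each above 0.1. Pairs of different number had -0.353 to 0.205, and the highest of these, control 4 with mutant 1, exceeded the first pair of the same number. Whether the numbers mark true pairs is therefore not known. Because the 3 correlations were positive, a paired fit with the number as a replicate block was run as well. In it control 4 has no partner and does not bear on the fold changes.

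Members and lists were chosen with earlier results of these data known. The text names the members, list genes past the threshold or otherwise at the ends of a list, the neighbours of the members that differed and the 5 genes most like Il23a and Il12rb1. A few list genes (Cntf, Il27, Il6, Tyk2, Stat3, Stat4, Socs3, Osmr, Il6ra, the myeloid markers and list genes called by another fit alone) and the neighbour of Il6st were named after their values had been seen. Overlaps come from GENCODE M21 on GRCm38. Promoter sequences are those of RefSeq. Some genes that the rule would name are not reported here.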

Additional observations from a re-analysis of the deposited data

How the results depend on the processing

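Il23a kept its direction in all 17 alternative fits, within 1 residual SD of its reported value. Il12rb1 kept its direction in all 17 and lay within that SD in 14, and was lower by more with DESeq2 (-0.94), edgeR (-0.94) and normalized counts (-0.95). Il6st passed the threshold in 11 fits and had a positive fold change in the other 6. As the genotypes did not overlap for Il23a, Il12rb1 and Il6st, leaving out a sample could not turn the sign of any of them. Il23a and Il12rb1 were also selected on this contrast, so their kept direction is a description and no support. Jak2 never passed. Ebi3 ranged from -0.071 to 0.074 with each sample left out, and its sign turned without control 1 (0.06) or mutant 3 (0.07). Members past the threshold numbered 1 to 3 with each sample left out in turn, and 2 without the filter on low values. The 363 genes past the threshold became 6 to 907 with each sample left out, 95 without the filter on low values, 1708 with DESeq2 and 1159 with the replicate block. The causes were not tested. With the replicate block Il23a had -1.07, and no call of a member changed; the calls of list genes that changed stand beside those lists. Between 5 and 13 reads of a gene in a sample, as for Il12a, the depth limits any comparison.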
